A study of Mus musculus with 4 samples.

Results

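The response of P815 cells to imatinib was described over 678 probes of the 1406 on each array, all the perfect-match probes that are named for a mouse, human or rat miRNA and carry a miR or let name. The members were chosen by probe name alone, and no measured value entered the choice. Of them, 167 were named for mouse, 455 for human and 56 for rat, under 574 different miRNA names. P815 is a mouse mastocytoma line that needs no added cytokine, and per the labels its KIT receptor is the D814V mutant. One culture was treated with 10 nM imatinib, an inhibitor of KIT, for 24 h, the other was not treated, and each gave 1 array. The remaining 2 arrays of the series came from bone-marrow-derived mast cells (BMMC) with stem cell factor (SCF, the KIT ligand) at 100 ng per cc for 24 h, and from BMMC starved of SCF. The mutant receptor was present in both P815 cultures, both came from 1 line, and the arrays do not report KIT activity. Mutations of this residue of KIT, in the activation loop of the kinase, are known to make the receptor poorly sensitive to imatinib. With 1 array a group no difference has a replicate error, so no test was made, and "higher" and "lower" compare 2 arrays only.

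A miRNA is a short RNA cut from a hairpin precursor, and it lowers the stability and translation of messages that pair with its seed, the bases 2 to 8 from its 5′ end. Many miRNA genes lie close together and are made from 1 long transcript, so that their products can be raised or lowered together, while later steps of processing and decay act on each hairpin or arm alone. In mast cells KIT signalling sustains survival and growth, and miR-221 and miR-222 are known repressors of the KIT message. The asterisk in older names such as let-7d* marks the arm of a hairpin that was thought to be the minor product.

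The sequences below are those on which the results turn. They are mature mouse miRNAs of the RefSeq annotation of GRCm38.p6, printed 5′ to 3′ with the seed in capitals. The first set comes from the lowest and the highest miRNAs with imatinib, and it includes both an A-rich pair, miR-568 and miR-703, and a C-rich pair, miR-346 and miR-207.
miR-568, chr16:43640665-43640684 (+ strand): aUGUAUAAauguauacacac
miR-703, chr5:98475616-98475636 (- strand): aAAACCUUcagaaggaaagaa
miR-574, chr5:64970364-64970385 (+ strand): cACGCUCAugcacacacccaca
miR-19b, chr14:115044358-115044380 (+ strand) and chrX:52741991-52742013 (- strand): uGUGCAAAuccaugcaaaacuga
miR-698, chr4:124743852-124743870 (+ strand): cAUUCUCGuuuccuucccu
miR-346, chr14:34894624-34894646 (+ strand): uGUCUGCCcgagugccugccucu
miR-207, chr4:40722968-40722990 (+ strand): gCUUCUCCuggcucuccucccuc
miR-485-3p, chr12:109734946-109734967 (+ strand): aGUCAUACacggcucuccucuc
The second set is the miR-27a and miR-27b pair, which share a seed, with miR-23a and miR-24, the neighbours of miR-27a.
miR-23a, chr8:84208563-84208583 (+ strand): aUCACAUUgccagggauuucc
miR-27a, chr8:84208727-84208747 (+ strand): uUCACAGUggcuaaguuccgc
miR-24, chr13:63301251-63301272 (+ strand) and chr8:84208875-84208896 (+ strand): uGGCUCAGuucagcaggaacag
miR-27b, chr13:63300760-63300780 (+ strand): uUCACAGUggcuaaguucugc
The third set compares the arms of 2 hairpins, let-7d and miR-18a, whose seeds differ between the arms.
let-7d, chr13:48536078-48536099 (- strand): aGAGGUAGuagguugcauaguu
let-7d*, chr13:48536024-48536045 (- strand): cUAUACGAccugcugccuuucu
miR-18a, chr14:115043867-115043889 (+ strand): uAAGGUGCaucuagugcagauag
miR-18a*, chr14:115043908-115043929 (+ strand): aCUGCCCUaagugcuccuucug
The fourth set holds 4 of the brightest miRNAs, which share the seed AAAGUGC and differ outside it at few bases, so that 1 probe may bind several of them.
miR-17-5p, chr14:115043684-115043706 (+ strand): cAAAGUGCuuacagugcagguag
miR-20a, chr14:115044183-115044205 (+ strand): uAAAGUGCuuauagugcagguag
miR-20b, chrX:52742159-52742181 (- strand): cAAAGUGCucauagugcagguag
miR-106a, chrX:52742541-52742563 (- strand): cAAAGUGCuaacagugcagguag
The last set holds the 2 known KIT repressors, which also share a seed.
miR-221, chrX:19146307-19146329 (- strand): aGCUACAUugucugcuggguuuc
miR-222, chrX:19146901-19146923 (- strand): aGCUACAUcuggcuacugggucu

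Signals were low on both arrays. The median member had a probe intensity of 233.9 with imatinib and 253.5 without, and the median mismatch probe, a copy of a miRNA probe with changed bases that serves as a measure of background, had 180.0 and 203.0 on the same arrays. A probe is called listed on an array where its intensity was at least 1.5 times that array's mismatch median, which is 270.0 with imatinib and 304.5 without. By this limit, which matched the blanks of the authors' deposited table, 274 members were listed with imatinib and 237 without. Both arrays listed 216 of them, 58 were listed with imatinib only, 21 without imatinib only, and 383 on neither. A mouse miRNA was taken from its mouse-named probe or otherwise from a human-named or rat-named one. Of 389 such miRNAs, 169 were listed with imatinib and 153 without, 185 on at least 1 array. Intensities are given as deposited, whereas differences are log2 values, with imatinib minus without, after background correction and quantile normalization over the 4 arrays. The scaling matters for reading them, because the summed member intensity above the mismatch median was 295893 with imatinib and 197230 without. A bright probe with like intensities on both arrays is therefore lower with imatinib after scaling.

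Ranks of the members were broadly alike on the P815 arrays, while single miRNAs differed by up to several fold. Across the 678 members, which share the arrays and the labelling, Spearman's rho between the arrays was 0.889. The log2 difference over the 295 members listed on at least 1 array had a median of -0.05 and an SD of 0.82, with quartiles at -0.52 and 0.46. Under median centring and with no scaling this median was 0.40 and 0.38, so the sign of a difference near 0, of a miRNA, a list or a genomic group, holds only relative to the scaling used. Of these, 33 were at least 2-fold higher with imatinib and 17 at least 2-fold lower. Over all 336 listed perfect-match probes, virus and worm probes included, 11.3% were 2-fold higher and 5.06% were 2-fold lower, close to the 11.2% and 5.76% of the members. Where a probe was listed on 1 array only, its fold is open-ended and was bounded by the lowest listed level of the other array. At these bounds 19 members were 2-fold higher (6.44%) and 15 lower (5.08%), against 6.25% and 4.46% of all 336 listed perfect-match probes. Among the 216 members listed on both arrays 13 were higher and 14 lower, against a share of 5.69% in each direction over all 246 such probes. Between the BMMC arrays, 9 of 421 listed members were 2-fold higher with SCF (2.14%) and 0 lower, with an SD of 0.34. Over all 481 perfect-match probes listed there, the shares were 2.08% and 0%. No test of the differences was possible there either: 1 array a group gave no p-value by any tool.

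The spread of the differences was wide at every signal. Cut by mean level into 3 bins of equal size, the listed members had an SD of 0.81 in the dim bin, 0.73 in the middle bin and 0.89 in the bright bin, where 9 were 2-fold higher and 9 lower. The dim bin held 16 members that were 2-fold higher (16.3%) and 3 that were 2-fold lower (3.06%), and only 25 of its members were listed on both arrays. The share was 9.09% in each direction in the bright bin, and 11.3% and 5.06% over all listed perfect-match probes. Over the members listed on both arrays, cut in the same way, the SD was 0.42, 0.66 and 0.98 from dim to bright. The dim bin of that cut held 0 members 2-fold higher and 3 lower (4.17%), and the bright bin 8 in each direction (11.1%). Over all perfect-match probes listed on both arrays the share was 5.69% in each direction. Probes for 1 miRNA that are named for different species gave a measure of repeatability within an array. Over 37 such pairs the differences lay apart by a median of 0.19 and had the same sign in 33, but the 95th percentile of the gap was 1.07. Of 9 pairs with a probe at 2-fold, 6 had both probes at 2-fold in the same direction.

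**Figure D1:**
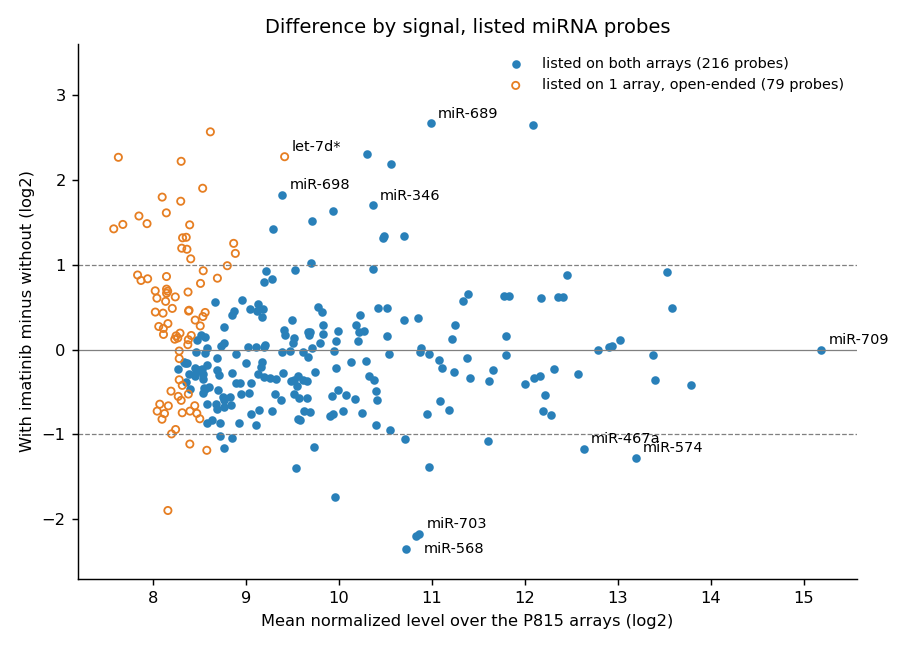
Log2 difference (with imatinib minus without) against the mean normalized log2 level of the P815 arrays, 1 point per member probe listed on at least 1 array; filled points were listed on both arrays, open points on 1, and dashed lines mark 2-fold. Open points above 2-fold outnumber those below it, and bright miRNAs such as miR-574 and miR-467a lie beyond 2-fold on the lower side.

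The brightest mouse miRNAs were largely shared by the arrays. Of the 20 brightest on each, 16 were in common, and of the 50 brightest, 38. The brightest probe on both was miR-709, a mouse miRNA, at an intensity of 44147 with imatinib and 29444 without, and since quantile normalization gives the top probe of every array 1 value, its difference is 0 by construction. It carried 19.9% of the mouse miRNA signal above the mismatch median with imatinib and 18.9% without, and the 20 brightest carried 58.4% and 61.7%. Signal also depends on the probe sequence, so an order between miRNAs is an order of probes and not of molecules. Over the 20 brightest by mean level the median log2 difference was -0.15, with 7 above 0 and 11 below, and the sign of this median turned under median centring and with no scaling. None of the 20 was 2-fold higher, and miR-574 and miR-467a were 2-fold lower. Under median centring and with no scaling, looked at for these 20 after seeing the data, 4 were 2-fold higher, miR-690, miR-705, miR-16 and miR-494, and 0 were 2-fold lower.

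Those 2 were miR-574 and miR-467a. miR-574 had an intensity of 4029 with imatinib and 6222 without, and it was 2.42-fold lower after scaling, at rank 12 with imatinib and rank 3 without. Its mismatch probe stayed near background, at 284 with imatinib and 234 without. The hairpin of miR-574 lies within the spans of Fam114a1 and Tlr6 on chromosome 5. miR-467a had 3166 with imatinib and 4792 without, a 2.24-fold difference, while its near relative miR-467b had 6511 with imatinib and 7499.5 without, 1.33-fold lower.

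Other bright miRNAs were higher within 2-fold. miR-690 was at rank 2 with imatinib and rank 8 without, at an intensity of 9766 with imatinib and 4229 without (1.89-fold). For miR-705, a G-rich sequence, the intensity was 4481 with imatinib and 1821 without (1.84-fold). miR-16, which lowers messages of the cell cycle, was at 4108 with imatinib and 1878 without, and miR-494, reported to target KIT, at 3998 with imatinib and 1618 without. Both were above 0, with log2 differences of 0.61 and 0.61, and a human-named miR-494 probe gave 0.62. miR-691 was at 8139.8 with imatinib and 4992 without (0.49). By contrast the proliferation-linked miRNAs miR-20a (4532 with imatinib and 3709 without) and miR-17-5p (4435 with imatinib and 3235 without) lay at 0.04 and 0.00, and miR-29a (4508 with imatinib and 3581 without) at 0.03.

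**Figure D2:**
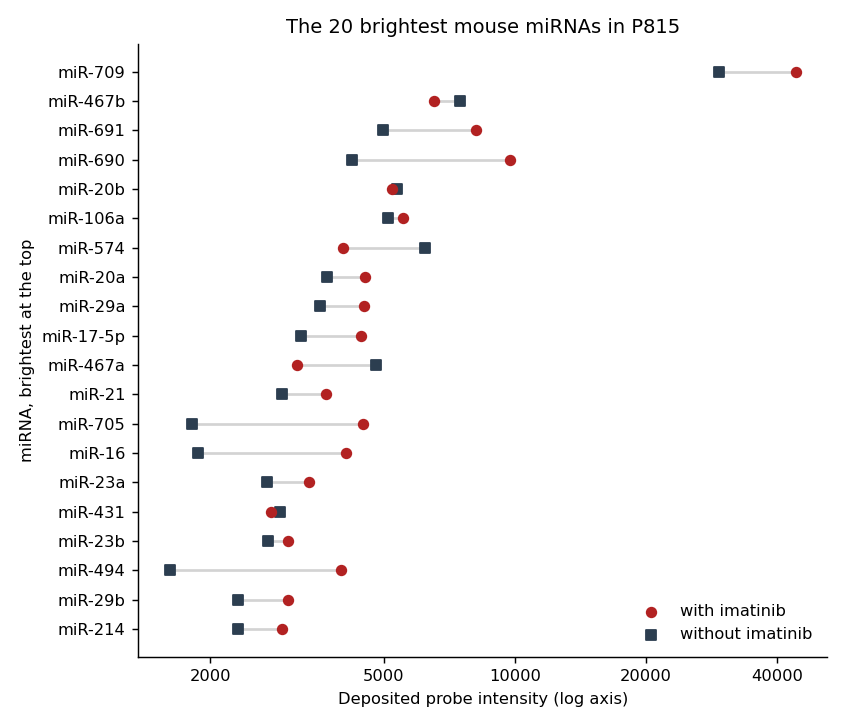
Deposited probe intensity, before any scaling, of the 20 brightest mouse miRNAs in P815 with imatinib (circles) and without (squares), on a log axis. miR-709 stands above all others, miR-690, miR-705, miR-16 and miR-494 are brighter with imatinib by most, and miR-574, miR-467a and miR-467b are dimmer with imatinib.

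Of the 185 listed mouse miRNAs, 14 were at least 2-fold lower with imatinib (7.57%, against 5.06% of all listed perfect-match probes). Of these 14, 11 were listed on both arrays. miR-568 had an intensity of 798 with imatinib and 1657 without (4.60-fold lower). miR-703 read 823 with imatinib and 1667 without (4.50-fold lower). These 2 miRNAs were lower in intensity as well as after scaling, and both stayed 2-fold lower under each of the 8 other ways of scaling and background correction that were tried, the authors' processed table among them. For miR-568 the mismatch probe was brighter than the matched probe on both arrays, at 1483 with imatinib and 2931 without, with a log2 difference of -1.90, so its signal cannot be assigned to the matched sequence. miR-703 had no mismatch probe. miR-568 lies within the span of Tigit, which encodes an immune checkpoint receptor, and miR-703 within that of Cfap299.

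The next lowest were miR-466 at 521 with imatinib and 985 without (3.33-fold) and miR-452* at 411 with imatinib and 733 without (2.62-fold). For miR-452* the mismatch probe was brighter than the matched probe on both arrays, at 498 with imatinib and 951 without. Its signal therefore cannot be assigned to the matched sequence. miR-713 followed with 1148 with imatinib and 1495 without (2.61-fold). miR-27a, known as a repressor of adipocyte differentiation, was at 547 with imatinib and 769 without, which is 2.21-fold lower, and its mismatch probe at 157 with imatinib and 170.0 without was near background on both arrays. For miR-19b, which the miR-17-92 cluster encodes, the intensities were nearly equal, 1078 with imatinib and 1192 without, and the 2.08-fold difference comes with the scaling. The same holds for miR-669c, at 1659 with imatinib and 1970.0 without (2.11-fold). miR-449, at 282 with imatinib and 392 without (2.03-fold), was barely above the listing limit with imatinib. Without scaling between arrays only 4 members remained 2-fold lower, miR-568, miR-703, miR-363* and the human-named miR-627. These 4 were also the only ones 2-fold lower under all 8 scaling and background settings. That set of 8 includes the reported setting and leaves out the authors' processed table. miR-363* was not listed with imatinib, at an intensity of 172 with imatinib and 369 without, and was at least 1.94-fold lower.

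In the other direction, 16 mouse miRNAs were at least 2-fold higher with imatinib (8.65%, against 11.3% of all listed perfect-match probes). Of these 16, 5 were listed on both arrays. The highest was miR-689, at an intensity of 3585 with imatinib and 505 without (6.35-fold), at rank 15 with imatinib and rank 79 without. The reference gene table holds no gene of that name, and the array has no mismatch probe for it. miR-698, within the span of Inpp5b, had 1159 with imatinib and 312 without (3.55-fold), and it was also 2-fold higher in BMMC with SCF, at a log2 difference of 1.21. miR-714 had 950.0 with imatinib and 321 without (2.67-fold) and no gene in the table.

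miR-346 was measured on 3 probes. The mouse-named one read 1784 with imatinib and 459 without (3.26-fold), the human-named one 1439 with imatinib and 369 without and the rat-named one 1873 with imatinib and 649.8 without, with log2 differences of 1.70, 1.63 and 1.34. All 3 were higher with imatinib by over 2-fold. The hairpin lies within the span of Grid1, which encodes a glutamate receptor subunit. Its mismatch probe read 1531 with imatinib and 359 without, a log2 difference of 1.88. For miR-207, within the span of Dnaja1, a heat shock co-chaperone, the mouse-named and rat-named probes read 1746 with imatinib and 554 without and 1765 with imatinib and 554 without, 1.32 and 1.34 on the log2 scale. The mismatch probe of miR-207 differed by 1.51.

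The other 11 miRNAs above 2-fold were not listed without imatinib. let-7d* had 1331 with imatinib and 295 without and was at least 4.49-fold higher, with its mismatch probe at 741 with imatinib and 245 without. miR-485-3p had 895 with imatinib and 208 without, at least 2.86-fold higher, and its human-named probe, listed on both arrays, read 1279 with imatinib and 351 without (1.52). The signal of miR-485-3p was thus higher on both of its probes. For miR-211, which melanocytes express strongly, the mouse-named probe read 391 with imatinib and 151 without (at least 1.30-fold), while the human-named one differed by 0.07. miR-328 was at 548 with imatinib and 214 without (at least 1.73-fold) and miR-294 at 477 with imatinib and 199 without (at least 1.53-fold).

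**Figure D3:**
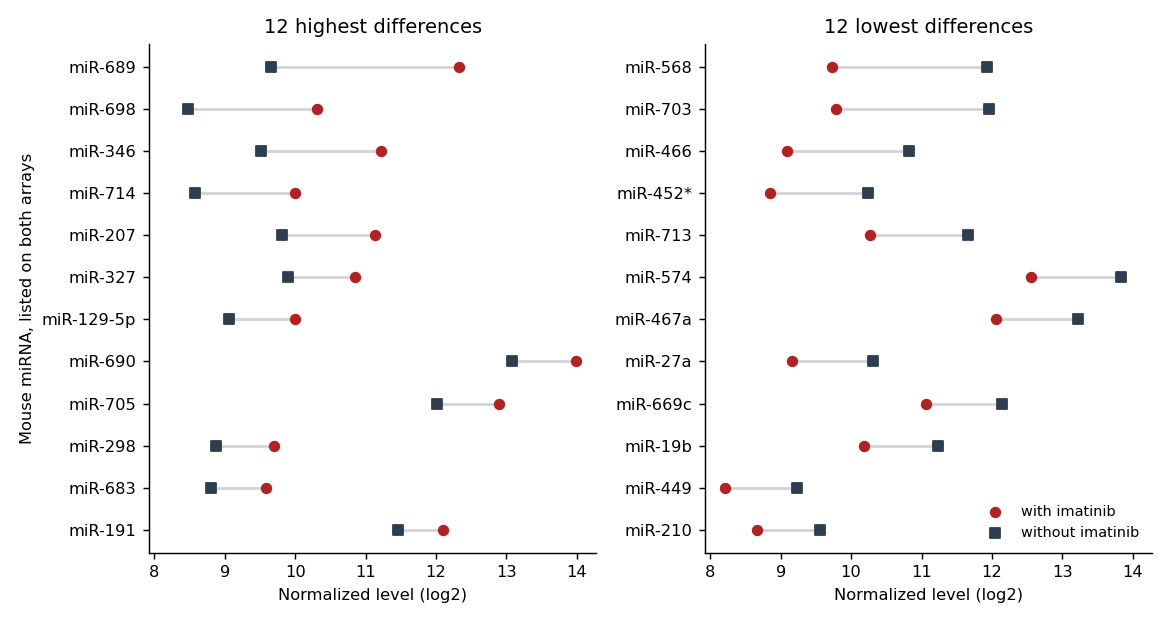
Normalized log2 level with imatinib (circles) and without (squares) of the 12 highest and the 12 lowest mouse miRNAs by log2 difference, among those listed on both arrays. Differences run up to 2.67 for miR-689 and down to -2.20 for miR-568; in the left panel 5 miRNAs exceed 2-fold and in the right panel 11.

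Among the miRNAs above 2-fold, the mismatch probes were mostly higher with imatinib too. Of the 16, 11 had a mismatch probe, and in 7 of these it was also 2-fold higher with imatinib (63.6%), against 10 of 118 (8.47%) among listed miRNAs within 2-fold. The 7 were miR-207, miR-18a*, miR-615, miR-346, miR-328, miR-294 and let-7d*. For miR-294, of the embryonic stem cell cluster, the mismatch probe (872 with imatinib and 287 without) was brighter than the matched one. The same held for miR-615, with 977.5 with imatinib and 282 without on the mismatch probe and 447.25 and 207.75 on the matched one. For miR-211, miR-291a-3p, miR-381 and miR-326 the mismatch probes were within 2-fold, with differences of 0.57, 0.28, 0.35 and 0.65. That of miR-326 was brighter than the matched probe without imatinib, at 215.5 against 174.25. Of the 14 miRNAs 2-fold lower, 8 had a mismatch probe, and only those of miR-568 and miR-452* were 2-fold lower too. The mismatch probes of miR-574, miR-27a, miR-19b, miR-449, miR-363* and miR-1 lay between -0.43 and 0.55. How far binding that tolerates mismatches entered these differences was not tested.

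Among miRNAs reported to repress KIT, 5 of 6 were listed and none was 2-fold apart. Their median of -0.37 turned above 0 under median centring and with no scaling. miR-221 had 1099 with imatinib and 864 without and miR-222 605 with imatinib and 515 without, with differences of -0.36 and -0.37, nearly equal. The mismatch probe of miR-222 read 786 with imatinib and 312 without, brighter than the matched probe with imatinib. miR-193a (307 with imatinib and 362 without) and miR-193b (761 with imatinib and 821 without) lay at -0.70 and -0.73, and miR-494 alone was above 0. miR-218 was not listed on either array.

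The 6 miRNAs with the seed AAAGUGC, which promote proliferation, differed by little, from -0.36 for miR-20b to 0.04 for miR-20a. Their median of -0.15 turned above 0 under median centring and with no scaling. The miR-18, miR-19, miR-25 and miR-92 families lay lower, with 6 of 9 members listed, all below 0, and a median of -0.55. The let-7 family with miR-98, inhibitors of growth genes such as Lin28 and Hmga2, had 9 of 9 listed and a median of 0.02, with let-7d highest (3249 with imatinib and 1405 without, 0.63) and let-7g lowest (916 with imatinib and 987 without, -0.89). In the miR-15 and miR-16 family miR-16 stood apart at 0.61, since the other 4 listed members lay between -0.59 and -0.29. The medians of that family (-0.29) and of the miR-29 family (-0.31) turned above 0 under median centring and with no scaling. All 4 of miR-103, miR-107, miR-26a and miR-26b were above 0, at 0.02 to 0.49, as were the 3 of miR-30b, miR-30c and miR-30d, at 0.11 to 0.69. The 0.69 is that of miR-30d, which was listed with imatinib only and whose bound was 1-fold, so it is not shown to be higher.

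Rodent miRNAs taken by number as those of the Sfmbt2 intron cluster had the lowest median of the lists with over 3 listed members, -0.76. Of 11 on the array 9 were listed, 7 below 0 and 3 at 2-fold, miR-466, miR-467a and miR-669c. That is 77.8% below 0 and 33.3% at 2-fold lower, against 52.9% of all listed members below 0 with a median of -0.05, and 5.06% of all listed perfect-match probes at 2-fold lower. miR-669a and miR-669b lay above 0, at 0.10 and 0.21. Not every member of this list lies in that intron. Its median is the value of miR-468, whose hairpin is on chromosome 6, and a hairpin of miR-297 is on chromosome 7. Neither hairpin is within the span of a protein-coding gene. The mouse-named miRNAs in the numbering run from miR-680 to miR-721, most of them without a well known function, lay mostly on the other side, with 24 of 41 listed, 17 above 0 (70.8%, against 46.4% of all listed members) and a median of 0.49. Among them 4 were 2-fold higher (16.7%), miR-689, miR-698, miR-704 and miR-714, and 2 were 2-fold lower (8.33%), miR-703 and miR-713, against 11.3% and 5.06% of all listed perfect-match probes. Only 18 of the 24 were listed on both arrays. The rest were listed with imatinib only, which favours a value above 0, and miR-704, 1 of these, was at least 1.47-fold higher. In the miR-290 and miR-302 clusters, which are typical of pluripotent cells, 8 of 17 were listed, with a median of 0.84. Of these 8, 7 were above 0 (87.5%, against 46.4% of all listed members). miR-291a-3p and miR-294 were 2-fold higher (25%, against 11.3% of all listed perfect-match probes), but at their bounds they were only at least 1.44-fold and 1.53-fold higher. In these clusters 1 miRNA was listed on both arrays, miR-302c at -0.53. The other members were listed with imatinib only, which favours a positive value. Of 55 miRNAs of the imprinted Dlk1-Dio3 region, 14 were listed, 8 above 0 and 6 below, with a median of 0.06 that turned below 0 under centring on the 75th percentile. Of the pair named by the study, miR-381 read 448 with imatinib and 243 without (at least 1.49-fold higher; 0.18 on a rat-named probe that was not listed) and miR-539 read 969 with imatinib and 461 without (1.42-fold higher). The study chose this pair on the same samples, so the direction is not independent evidence.

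Neighbouring miRNA genes were compared next, since a shared transcript gives their products 1 origin. Taking listed miRNAs whose hairpins lie within 10000 bases on 1 strand in GRCm38.p6, 26 groups held at least 2 genes of listed miRNAs, 72 miRNAs in all. A mature miRNA made from 2 loci was entered in both groups, which gave 77 entries, 54 of them listed on both arrays. The range of the log2 differences within a group had a median of 0.62, and in 8 groups it was at least 1. In 13 of the 26 groups every miRNA was listed on both arrays. Several of the wide ranges end at a miRNA listed on 1 array only, such as miR-485-3p, let-7d*, miR-18a* or miR-363*, and are open-ended. In 14 groups all differences were below 0 and in 3 all were above 0, but under median centring and with no scaling, settings added for these groups after seeing the data, 4 groups lay below 0 and 12 above.

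Some groups were tight. The 3 miRNAs of the miR-106b, miR-93 and miR-25 cluster on chromosome 5 lay between -0.34 and -0.22. miR-193b and miR-365 lay at -0.73 and -0.78, but miR-365 is also made from a locus on chromosome 11. In both sets, all listed on both arrays, the miRNAs differed among themselves by less than the median gap between probes of 1 miRNA. miR-449b and miR-449 lay at -1.11 and -1.02, and miR-34c and miR-34b at -0.74 and -0.66, but miR-449b, miR-34c and miR-34b were not listed with imatinib and are at least 1.74-fold, 1.45-fold and 1.27-fold lower, so how close these neighbours lie is not known.

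Other groups were wide. In the miR-23a group on chromosome 8, miR-27a was at -1.14, while its neighbours miR-23a and miR-24 were at -0.22 and -0.03. In the paralogous group on chromosome 13, miR-27b (546 with imatinib and 615 without) was likewise the lowest, at -0.81, beside miR-23b at -0.53. miR-27a and miR-27b share the seed and nearly all other bases, so the probes may bind both, and miR-24 is made from both loci. In the miR-17-92 cluster on chromosome 14, miR-19b at -1.06 and miR-18a at -0.71 stood below miR-17-5p and miR-20a at 0.00 and 0.04. A locus on the X chromosome makes miR-19b as well.

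Arms of 1 hairpin also differed. let-7d lay at 0.63 and let-7d* at 2.27, both above 0. For miR-18a the intensity was 400.0 with imatinib and 455 without, a difference of -0.71, whereas miR-18a* had 368 with imatinib and 198 without, a difference of 1.48, and since only the treated array listed it, the fold is at least 1.23. The mismatch probe of miR-18a* read 487 with imatinib and 161 without, brighter than the matched probe with imatinib. miR-452 lay at -0.35 (543 with imatinib and 453 without) and miR-452* at -1.39. The mismatch probe of miR-452* was brighter than its matched probe on both arrays, so the value of that arm cannot be assigned to its sequence. miR-191, abundant in blood cells, had 3209 with imatinib and 1318 without (0.64), against 318 with imatinib and 325 without for miR-191* (-0.22).

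**Figure D4:**
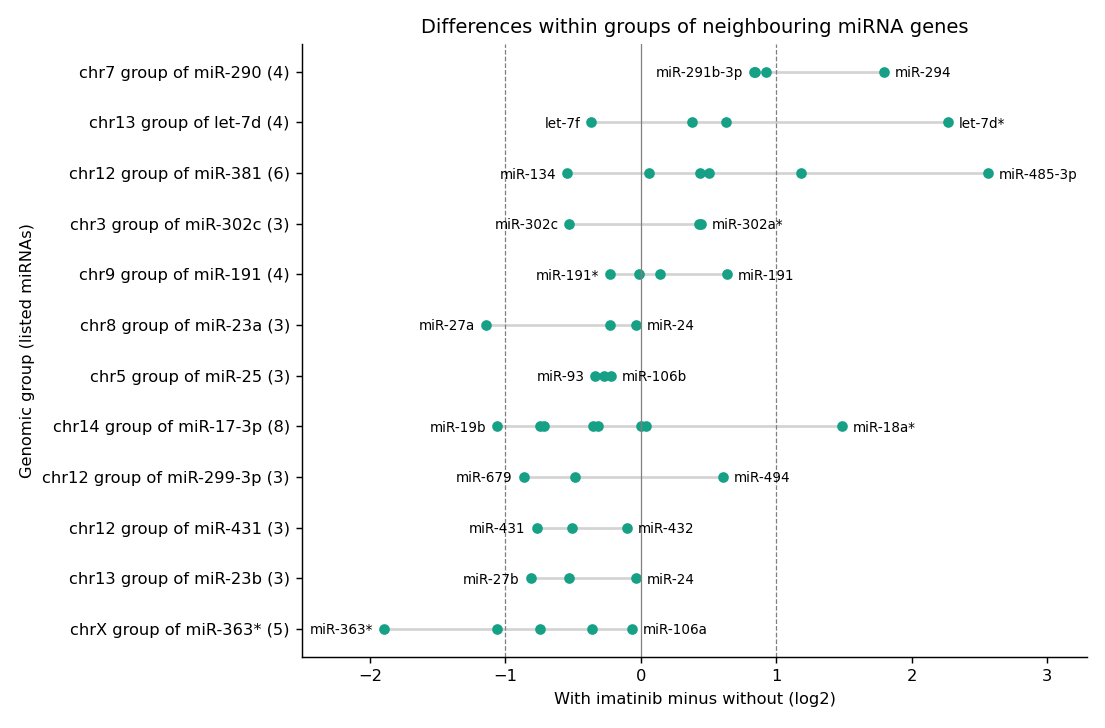
Log2 difference (with imatinib minus without) of listed mouse miRNAs in genomic groups with at least 3 of them, 1 point per miRNA, ordered by group median; the lowest and highest of each group are named and dashed lines mark 2-fold. The miR-25 group spans 0.11, while the group of miR-381 spans 3.11 with miR-485-3p at its upper end. That span is open-ended, since miR-485-3p was not listed without imatinib and was at least 2.86-fold higher. Points of miRNAs listed on 1 array only are drawn like the others.

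The imatinib difference was weakly related to base composition. A mature sequence was at hand for 152 of the 185 listed mouse miRNAs (82.2%), and over these, which share arrays and labelling, the difference correlated with the percent of G plus C at r = 0.29 (Spearman's rho 0.25). The correlation was -0.42 with the percent of A (rho -0.33) and 0.37 with the percent of C (rho 0.31). Over the 112 miRNAs listed on both arrays the values were nearer 0, with r = 0.26 for G plus C (rho 0.17), -0.32 for A (rho -0.16) and 0.20 for C (rho 0.16). The 34 miRNAs with under 40% G plus C had a median of -0.46, and none of them was 2-fold higher while 3 were 2-fold lower. The 19 miRNAs with 60% or more had a median of 0.45, with 4 of them 2-fold higher and 0 lower. Of these 4, miR-326 and miR-615 were not listed without imatinib, at intensities of 174.25 and 207.75, so their folds are open-ended. In between, the medians were 0.02 for 58 miRNAs at 40 to under 50% and -0.24 for 41 at 50 to under 60%. At 40 to under 50%, 5 were 2-fold higher and 2 lower, and at 50 to under 60%, 4 and 4. Over all 152, 13 were 2-fold higher and 9 lower. The shares of all listed perfect-match probes were 11.3% and 5.06%. The bins were not counted over the miRNAs listed on both arrays. miR-568, the lowest miRNA, has 25% G plus C and miR-703 has 33.3%, while miR-346 and miR-207 have 65.2%. For mismatch probes of 120 of the listed miRNAs, the correlation with the G plus C percent of the miRNA was 0.41 (rho 0.37). Over the same 152 miRNAs the SCF difference in BMMC gave r = -0.11 (rho -0.04). With a straight line on G plus C removed, a step added after seeing the data, 10 miRNAs were 2-fold higher in place of 13, all 10 among the 13, and 17 were 2-fold lower in place of 9. The part of base composition in single differences was not tested. Only 9 of the 14 miRNAs that were 2-fold lower had a sequence, so their composition as a set is not given.

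**Figure D5:**
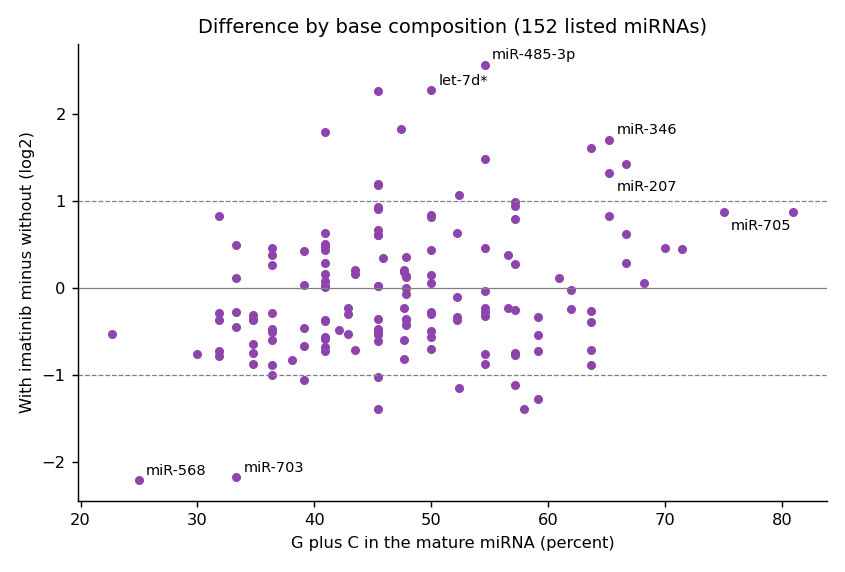
Log2 difference (with imatinib minus without) against the percent of G plus C in the mature sequence for 152 listed mouse miRNAs; dashed lines mark 2-fold. No miRNA under 40% G plus C lies above 2-fold and none at 60% or more lies below it, with wide scatter between. Among those above 2-fold at 60% or more, miR-326 and miR-615 were not listed without imatinib.

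Members with no mouse name or gene, 187 probes under 185 names, read mouse RNA for which the reference names no matching miRNA gene. Of them 68 were listed, of which 12 were 2-fold higher (17.6%) and 3 lower (4.41%), against 11.3% and 5.06% of all listed perfect-match probes. miR-638 read 5966 with imatinib and 977 without (6.27-fold higher) and its mismatch probe 5978 with imatinib and 1289 without. miR-663 was at 2193 with imatinib and 444 without (4.54-fold) and miR-640 at 1912 with imatinib and 381 without (4.96-fold). These 3 human-named probes thus differed about as much as the highest mouse miRNAs. miR-627, at 705 with imatinib and 1621 without (5.08-fold lower), had the lowest difference of all members, -2.34, and its mismatch probe read 197 with imatinib and 280.0 without. Probes for virus or worm miRNAs, of which 41 were listed, included 5 (12.2%) at 2-fold or more above and 0 below. The 12.2% lies near the 11.3% of all listed perfect-match probes. Of 142 mismatch probes above the listing limit, 37 were 2-fold higher (26.1%) and 10 were 2-fold lower (7.04%).

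The label of a mast cell line was checked against miRNAs of blood and other cells. Of 7 blood and mast cell markers, miR-221, miR-222 and miR-142-5p were listed on both arrays, the last at 377 with imatinib and 352 without. miR-223, miR-142-3p, miR-126 and miR-150 were not listed on either array, at intensities of 147.5 to 205.5 with imatinib and 160.2 to 239.0 without. These markers of myeloid and lymphoid lineages were thus not detectable at this signal. Of 18 markers of other cell types, 3 were listed on both arrays and 3 without imatinib only, namely miR-1, miR-144 and miR-200b. miR-206 of muscle had 1475 with imatinib and 1239 without, but its mismatch probe had 1482 with imatinib and 891 without. miR-122a of liver had 518 with imatinib and 437 without, and miR-128a of neural tissue 806 with imatinib and 472 without. For miR-1 a rat-named probe differed by -0.01, against -1.19 for the human-named one. In RNA from many cells, fewer cells of a type and less of an RNA per cell cannot be told apart.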

How the data were processed

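Total RNA was extracted with TRIzol, and 10 mcg of it was labelled with Cy3 by RNA ligase, per the labels' protocols. The deposited array tables give 1 linear intensity per probe, a mean of foreground medians per the file headers, with no background column. Which maker supplied the arrays, and how many spots a probe had, is not given in the sources used here. The authors' deposited table of processed values was used as an alternative. On all 4 arrays the background was corrected with normexp (offset 50) in limma 3.58.1 (R 4.3.3), and log2 values of the 785 perfect-match miRNA probes were quantile normalized. Mismatch and control probes were then interpolated onto that scale array by array. Counts were taken at 2-fold over probes listed on at least 1 P815 array. The steps were also run on simulated data with known folds. These held no effect of base composition or of binding that tolerates mismatches, so they do not measure how reliable the reported differences are. Names and sequences came from RefSeq (GRCm38.p6), and arms of older names were assigned by hand. Near-identical family members may cross-hybridize, so differences within a family are uncertain. The number of arrays limits the precision.

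miRNAs were named by rule: the 20 brightest, the 12 highest and 12 lowest listed on both arrays, the 6 largest bounds in each direction, the ends of each list, the KIT repressors, the pair named by the study and the 6 largest rank gains and losses among the 100 brightest. Others were named after their values were seen. The members, lists and rules were chosen with earlier results of these data known.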

Additional observations from a re-analysis of the deposited data

Results flagged for a closer look

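A control probe outside the miRNA comparison, the Bio C spike, had an intensity of 23761 in P815 with imatinib, against 3136 in P815 without imatinib, 4043 in BMMC with SCF and 4648 in BMMC without SCF. The Bio B spike read 3184 with imatinib and 1455 without. Whether the spiked amounts were equal on the arrays is not given in the sources used here, and their part in the miRNA differences was not tested.

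Probes for viral miRNAs that were at least 2-fold higher with imatinib were ebv miR-BART19 (785.8 with imatinib, 277.0 without), hcmv miR-UL70-3p (2015 and 436.2), hcmv miR-US33 (564.8 and 267.5), kshv miR-K12 (319.8 and 185.8) and mghv miR-M1-2 (288.8 and 172.5). Only hcmv miR-UL70-3p was listed on both arrays.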

How the results depend on the processing

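No paired analysis was possible because each group has 1 array. The split of higher and lower members depended on the scaling, and medians near 0 turned sign with it. With median centring, the median of the listed members lay at 0.40, against -0.05 as reported, and that of the 20 brightest mouse miRNAs at 0.37, against -0.15, and 63 members were 2-fold higher and 4 lower. With no scaling these values were 0.38, 0.35, 62 and 4. Relative to the median of the listed members, the counts were 31 higher and 13 lower under both, against 34 and 15 in the values reported. Cyclic loess gave 9 lower and a median of 0.04 over the listed members, and a limit of 2 times the mismatch median gave 0.02. Subtracting the mismatch median gave 56 higher and 46 lower, SDs of 1.86 in the dim bin and 0.945 in the middle bin, and a rank correlation of 0.864. By the authors' deposited table, 30 were higher and 33 lower, the SD of the middle bin was 0.976 and the rank correlation 0.824. Members listed on both arrays gave 13 higher, a dim-bin SD of 0.416 and a rank correlation of 0.824, and a limit of 2 times the mismatch median gave a rank correlation of 0.763. The dim-bin SD was 0.623 with no background correction and 0.332 with no filter on dim probes. With every difference taken at its bound 19 were higher, and with 1 probe a mouse miRNA 16 were. At 1.5-fold 61 were higher and 62 lower, and at 3-fold 15 and 5. The fewer probes or other thresholds of these last settings change the counts by construction; the cause of the others was not tested. Dim probes, of which 79 were listed on 1 array only, have only bounds.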

Other observations

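Among the control probes, glycine tRNA read 3266 in P815 with imatinib and 3405 in P815 without imatinib, a log2 difference of -0.69 after scaling and -0.05 before it. A probe for U6, a small nuclear RNA, was not listed on either array, at 133.5 with imatinib and 154.0 without. A probe for part of the same tRNA, Gly_tRNA_2_24, read 521.0 with imatinib and 342.8 without (0.24), while those for its other parts were not listed.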
